A study of Mus musculus with 38 samples.

Results

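Zoledronic acid (ZA) added to G-CSF was compared with G-CSF alone in RNA of whole mouse bone marrow. The comparison rests on 5 of the 38 libraries of the series, 2 from mice given both agents and 3 from mice given the cytokine only, chosen by the treatment named in each sample's title. All were from female C57BL/6 mice aged 6 to 7 weeks. The G-CSF libraries came from mice that received recombinant human G-CSF at 50 µg/kg by injection into the abdomen on each of 3 days. The combined libraries came from mice that received ZA at 100 µg/kg by the same route and, from 2 days later, the same 3 doses of G-CSF. Both groups therefore carried the cytokine, and the contrast shows what differed when ZA was present as well. Untreated marrow (2 libraries) and marrow given ZA alone (2 libraries) were measured in the same table and are used here for levels and for 1 test of a difference between effects. The labels number biological replicates without saying that each is a separate animal. The spread that p-values rest on is therefore the one between these libraries, which may be technical. The labels' protocols also describe nude mice with another dosing interval, in experiments that are not analysed here.

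ZA is a nitrogen-containing bisphosphonate. It binds bone mineral, is taken up by bone-resorbing osteoclasts and blocks farnesyl diphosphate synthase, an enzyme of the mevalonate pathway that supplies the lipids needed to anchor small GTPases in membranes. G-CSF drives the production of neutrophils from marrow precursors and releases stem cells into blood, and it lowers several supports of the marrow niche. Whole marrow is a mixture of developing neutrophils, red cells, B cells, monocytes and progenitors with a small number of stromal and bone cells, and in such RNA fewer cells of a type cannot be told apart from less RNA per cell.

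The 5 libraries held 7.08 to 16.2 M estimated counts (M for mega). Levels below are CPM, counts per 1000000 of the TMM-scaled library total. Differences are log2 changes, combined minus G-CSF, from edgeR's quasi-likelihood fit of all 9 marrow libraries. The ± after a log2 change is an approximate standard error, the absolute log2 change divided by the square root of the test's F statistic. A gene at 0 in a library may have had up to 3 counts, which is 0.174 to 0.342 CPM. Across genes, the log2 CPM of the 2 combined libraries correlated at 0.963 with each other, those of the G-CSF libraries at 0.953 to 0.974, and combined with G-CSF libraries at 0.949 to 0.961. The 2 groups were thus about as alike as the libraries within each. Against untreated marrow the combined libraries correlated at 0.877 to 0.892. Neutrophil, erythroid, B cell, monocyte and progenitor markers were all detected, as whole marrow should show.

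At the study's depth and number of libraries, 1 gene passed the test. It was Gm20431, out of 14737 genes tested (0.00679% called; edgeR's quasi-likelihood test, Benjamini-Hochberg adjusted p under 0.05). Without adjustment 1530 genes had p under 0.05, 679 higher and 851 lower in combined marrow, and the next adjusted p after Gm20431 was 0.065. DESeq2's Wald test called 204 genes, 95 higher (0.645%) and 109 lower (0.74%), of which 199 had no overlap between the 2 combined and the 3 G-CSF libraries. Counts of calls therefore depend on the tool, and the sections below lead with levels in each library. For any gene, "above" means that both combined libraries exceeded all 3 G-CSF libraries, and "below" the reverse. Of all genes tested, 2096 were above (14.2%) and 2473 below (16.8%). The median log2 change over all genes was -0.01, and 1075 genes had a log2 change beyond 1 in either direction.

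Gm20431 (ENSMUSG00000089739; chr2:167607850-167661496, GRCm38) is a predicted protein-coding gene of GENCODE vM21 whose span overlaps Ube2v1, Tmem189 and Gm22355. It had 49 and 62 estimated counts in the combined libraries and 0 in each of the 3 G-CSF libraries. Untreated marrow had 60 and 102 counts, and ZA marrow 24 and 38. Set against 3 counts over the whole G-CSF group, the combined level was at least 74.8-fold higher (edgeR adjusted p = 0.020). It was called in 12 of 20 other settings. The call was lost without combined replicate 3, without G-CSF replicate 2 and without either untreated library (edgeR adjusted p 0.051 to 0.086), with library totals only, with the combined and G-CSF libraries alone, and with a replicate block. The gene was thus listed at 0 in G-CSF marrow only, among the 4 treatments. Because its exons can be shared with the overlapping genes, how reads were divided among them is uncertain. In sorted osteoclast precursors, quantified in another table, its level was 21.0 ± 4.08 CPM (SD, n = 5) against 26.3 ± 2.54 CPM (SD, n = 5), a log2 change of -0.34 for combined against G-CSF.

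**Figure D1:**
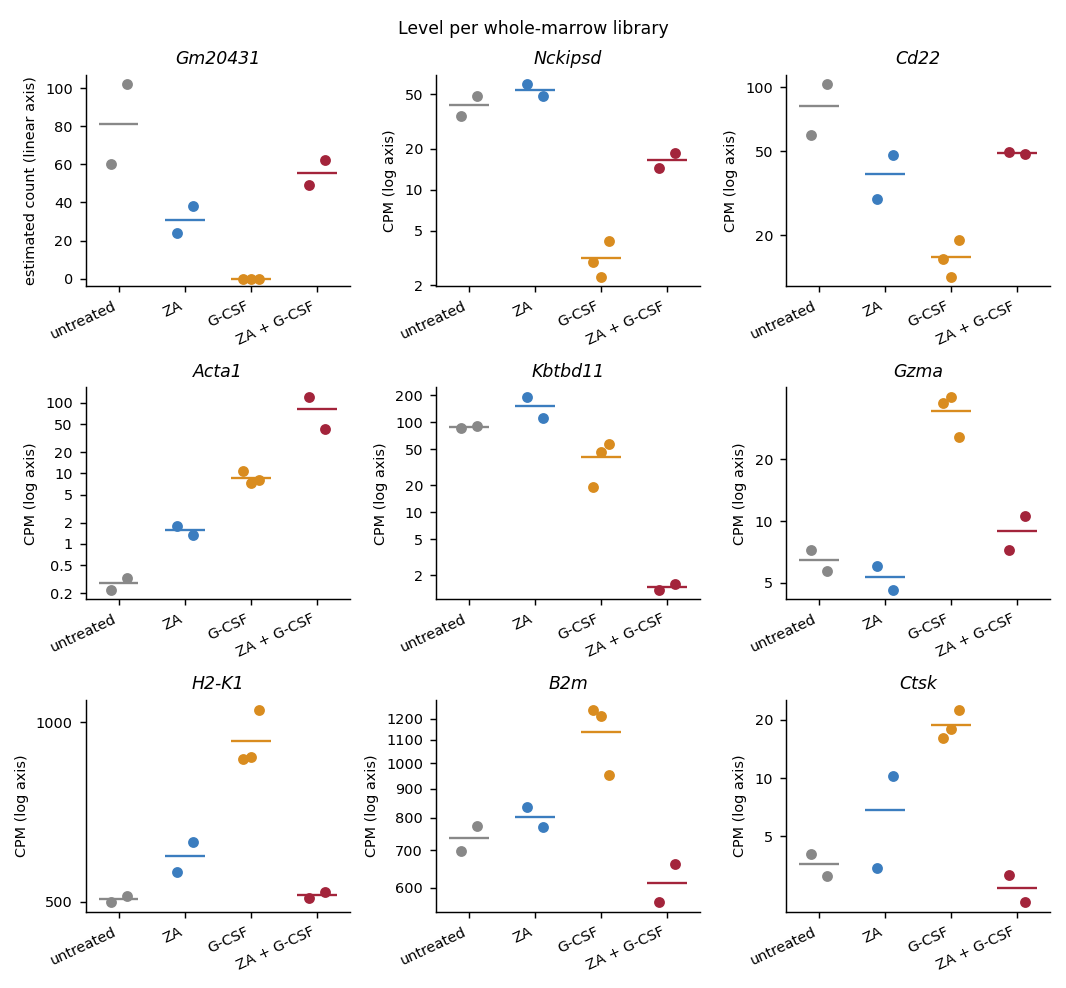
Each point is 1 whole-marrow library and each line a group mean, for untreated, ZA, G-CSF and combined (ZA + G-CSF) marrow; Gm20431 is in estimated counts on a linear axis and the other genes in CPM on a log axis. Nckipsd, Cd22 and Acta1 were above and Kbtbd11, Gzma, H2-K1, B2m and Ctsk below G-CSF marrow in both combined libraries, but Gm20431 alone passed the test.

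Since no other gene passed, the rule for named genes supplied the 8 protein-coding genes on each side with the smallest unadjusted p, at least 5 CPM on average and no overlap between groups. None of these 16 passed edgeR's test (adjusted p 0.065 to 0.172), and all 16 were called by DESeq2. They are given as values.

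On the higher side, 4 of the 8 encode parts of skeletal muscle and are described with that list. Nckipsd, which encodes an adaptor of the actin cytoskeleton (chr9:108808368-108818844), had 14.4 and 18.5 CPM in the combined libraries and 2.99, 2.32 and 4.26 CPM in the G-CSF libraries. Untreated marrow had 34.4 and 48.6 CPM and ZA marrow 59.2 and 48.6 CPM. The combined libraries thus lay between G-CSF marrow and the marrow without the cytokine, with a log2 change of 2.38 ± 0.28 (edgeR adjusted p = 0.065). Rps26, a protein of the small ribosomal subunit with near-identical copies in the genome, had the same order of groups, with 223 and 127 CPM combined, 45.1, 37.4 and 64.0 CPM with G-CSF, 418 and 324 CPM untreated and 466 and 434 CPM with ZA. Its log2 change was 1.84 ± 0.28 (edgeR adjusted p = 0.097), and reads could be split among its copies. Dpy19l3, a C-mannosyltransferase, stood at 13.7 and 14.7 CPM combined and 4.53, 4.11 and 4.16 CPM with G-CSF (log2 change 1.73 ± 0.22, edgeR adjusted p = 0.065). Its 2 combined values were close together and lay above every other marrow library, since untreated and ZA marrow had 9.51 and 8.34 and 8.7 and 7.02 CPM. Slc6a20b, an amino acid transporter of the SLC6 family, was at 8.78 and 18.8 CPM combined against 0.385, 0.232 and 0.473 CPM, a log2 change of 5.25 ± 0.76 (edgeR adjusted p = 0.096). The ZA libraries differed widely for this gene, at 1.52 and 9.4 CPM, while the untreated ones were as low as those with G-CSF.

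On the lower side, Kbtbd11, which encodes a kelch and BTB domain protein (chr8:15011025-15033333), showed the widest gap. It had 1.38 and 1.6 CPM in the combined libraries against 19.1, 46.1 and 56.5 CPM with G-CSF, 86.3 and 90.1 CPM untreated and 190.0 and 111 CPM with ZA (log2 change -4.76 ± 0.57, edgeR adjusted p = 0.065). The combined libraries were the lowest of all 9, although the G-CSF libraries themselves spread widely. Gzma, the cytotoxic granule protease granzyme A of NK and T cells, had 7.2 and 10.6 CPM combined and 37.6, 40.1 and 25.7 CPM with G-CSF, a log2 change of -1.96 ± 0.29 (edgeR adjusted p = 0.096). Here the combined libraries resembled untreated and ZA marrow, which had 7.25 and 5.72 and 6.08 and 4.64 CPM. Upp1, a uridine phosphorylase, gave 2.47 and 3.99 CPM combined and 12.9, 11.3 and 9.36 CPM with G-CSF (log2 change -1.79 ± 0.31, edgeR adjusted p = 0.145). Of the other 5, Ctsk, Oas1a, H2-Q7, H2-K1 and H2-T22 belong to or resemble members of lists below. H2-T22, a class I-like gene with near-identical relatives, had 5.92 and 5.59 CPM combined, 11.1, 10.4 and 12.3 CPM with G-CSF and 58.9 and 52.2 CPM untreated (log2 change -0.96 ± 0.17, edgeR adjusted p = 0.172).

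The genes were then read by 34 lists of pathways and cell types, which held 555 tested genes. No member of any list passed edgeR's test. Of the 555 genes, 81 were above and 160 below. The list medians were below 0 for 25 lists and above 0 for 9. These signs depend on how libraries are scaled. On the deposited TPM, with no scaling between libraries, 37.2% of all genes were above and 4.07% below, and on log2(TPM + 1) the median over all genes was 0.22, with 7 list medians below 0 and 27 above. With library totals only, 17 were below 0. Relative to the median over all genes, 25 list medians were lower in the reported fit, 21 on log2(TPM + 1) and 24 or 25 in the other 4 scalings. Counts on unscaled TPM given below are to be read against 37.2% and 4.07%. The lists are described by these counts and medians beside the same values over all genes, and none was tested as a set.

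**Figure D2:**
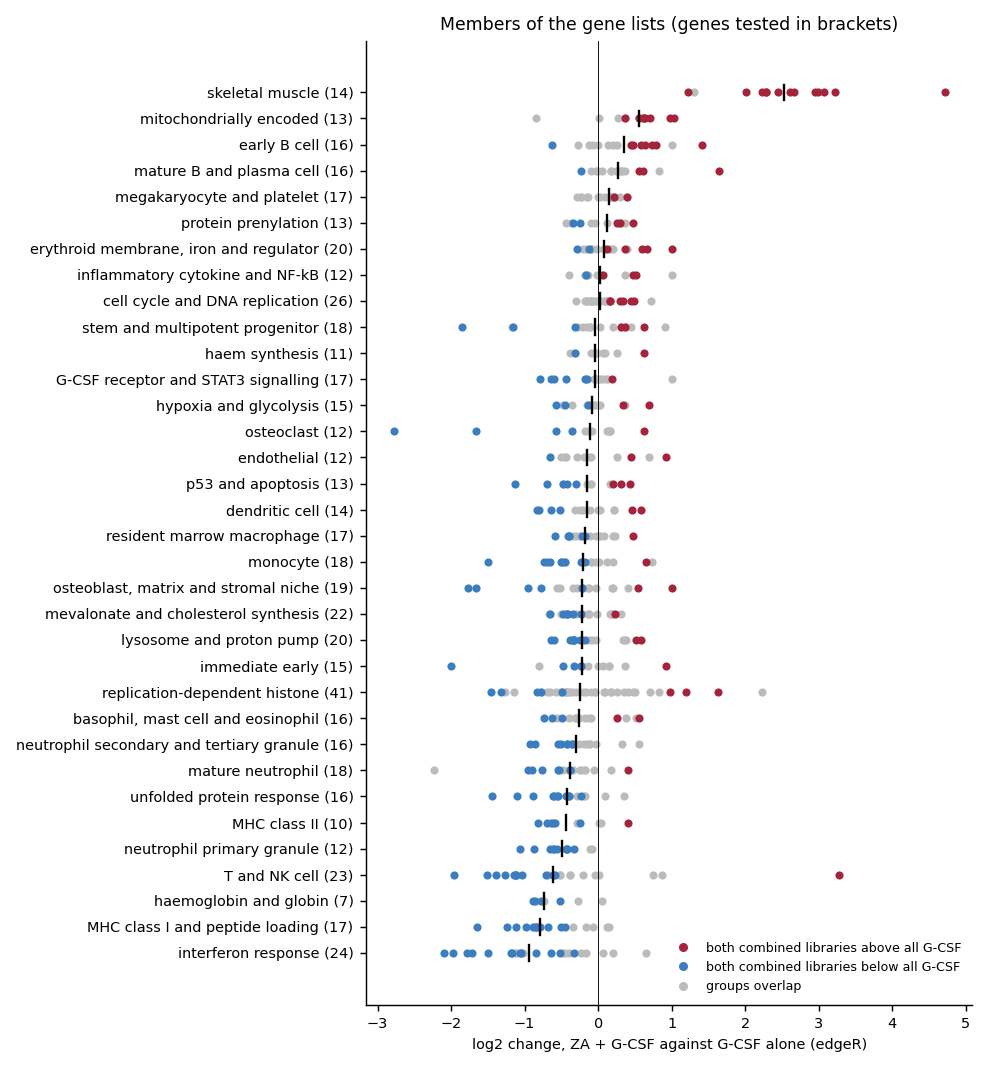
Each point is 1 tested gene of a list, placed by its log2 change of combined against G-CSF marrow; red and blue mark genes whose 2 combined libraries were all above or all below the 3 G-CSF libraries, grey marks overlap, and black ticks are list medians. The medians run from 2.53 for skeletal muscle to -0.94 for the interferon response, and no point passed edgeR's adjusted test.

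Transcript length moved with the contrast, and its part in the results was not tested. Genes were put in 5 equal bins by the relative length that the deposited counts and TPM imply. The median log2 change was -0.24 in bin 1 (shortest), -0.12, -0.02 and 0.05 in bins 2 to 4, and 0.14 in bin 5 (longest). In bin 1, 764 genes were below and 221 above, and in bin 5, 201 were below and 729 above. ZA against untreated marrow gave medians of 0.03 in bin 1 and -0.07 in bin 5. The list counts were therefore repeated after values were centred on genes of like length, with 14.5% of all genes then above and 14.9% below. The repeat is given below for lists that lead the text and for those it changed most.

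**Figure D3:**
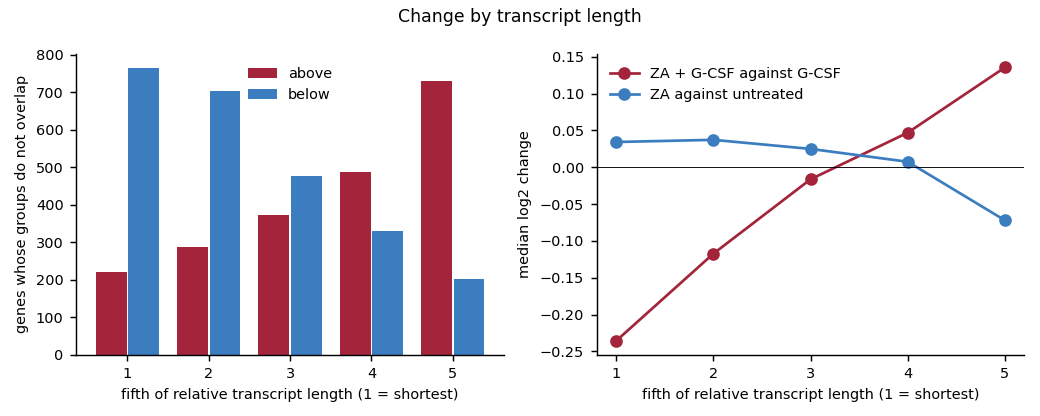
Genes tested in whole marrow were put in 5 bins by relative transcript length (x axis, 1 = shortest). The left panel counts genes above (red) or below (blue) G-CSF marrow in both combined libraries, which reach 764 below in bin 1 and 729 above in bin 5; the right panel gives the median log2 change, which goes from -0.24 to 0.14 for combined against G-CSF.

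Class I antigen presentation genes had lower levels in the combined libraries than in any G-CSF library for most members. Class I molecules display peptides to CD8 T cells: H2-K1 and H2-D1 are the classical heavy chains, B2m is the shared light chain, Psmb8, Psmb9 and Psmb10 are the immunoproteasome subunits that cut the peptides, and Tap1 carries them into the endoplasmic reticulum. Of 17 tested members 12 were below and 0 above, beside 16.8% and 14.2% of all genes. The list's median log2 change was -0.79, against -0.01 over all genes, and DESeq2 called 8 members lower.

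H2-K1 had 508 and 519.6 CPM in combined and 866, 874 and 1048 CPM in G-CSF marrow, with 499 and 511 CPM untreated and 561 and 630.4 CPM with ZA. The combined libraries sat at the untreated level and under every G-CSF library (log2 change -0.86 ± 0.14, edgeR adjusted p = 0.141). H2-D1 had 1752 and 1605 CPM combined and 2800.2, 2866 and 3340.2 CPM with G-CSF, a log2 change of -0.84 ± 0.15 (edgeR adjusted p = 0.172). Unlike H2-K1, its combined level stayed above untreated marrow, at 994 and 835 CPM. B2m, named after its values were seen like the next 2 genes, had 566 and 661 CPM combined and 1244, 1212 and 951 CPM with G-CSF (log2 change -0.89 ± 0.17, edgeR adjusted p = 0.172). Psmb8 had 68.3 and 86.2 CPM combined and 182, 156 and 118 CPM with G-CSF (log2 change -0.98 ± 0.20, edgeR adjusted p = 0.214). Tap1 had 59.9 and 106 CPM combined and 147, 138 and 116 CPM with G-CSF (log2 change -0.68 ± 0.24, edgeR adjusted p = 0.381). For Tap1 the second combined library came close to the lowest G-CSF library, and for B2m and Psmb8 the groups stood well apart. H2-Q7, a non-classical class I gene with near-identical copies, had the largest difference of the list, at 22.3 and 39.1 CPM against 97.8, 90.8 and 99.0 CPM (log2 change -1.64 ± 0.25, edgeR adjusted p = 0.097). Tapbp, the chaperone tapasin, overlapped, at 98.9 and 149.8 CPM combined and 125, 112 and 99.4 CPM with G-CSF. Centred on genes of like length, 12 members were again below and 0 above, with a median of -0.67. On unscaled TPM 8 members were below and 2 above. Without combined replicate 1 the list median was -0.52. The H2 genes share sequence, so the division of reads among them is uncertain, which does not touch B2m or the proteasome subunits.

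Genes of the interferon response had the lowest median of the 34 lists. Interferons bind receptors that switch on target genes such as the Oas enzymes that sense viral RNA, the Ifit proteins and the ubiquitin-like Isg15. Of 24 tested members 13 were below and 0 above, with a median log2 change of -0.94, and DESeq2 called 6 lower. Stat2, a signalling member of the list, overlapped, at 27.8 and 39.1 CPM combined and 29.0, 31.6 and 35.7 CPM with G-CSF. Among the targets, Oas1a had 3.45 and 4.91 CPM combined and 18.8, 14.3 and 9.93 CPM with G-CSF (log2 change -1.78 ± 0.30, edgeR adjusted p = 0.141). Untreated and ZA marrow had 30.6 and 30.7 and 36.2 and 32.2 CPM of Oas1a, so the combined libraries were the lowest of the 9. Isg15 had 14.8 and 15.2 CPM combined and 47.8, 38.4 and 16.5 CPM with G-CSF, against 169.6 and 156 CPM untreated (log2 change -1.19 ± 0.41, edgeR adjusted p = 0.385). G-CSF replicate 3 lay next to the combined libraries for Isg15, and was also the nearest to combined marrow for Ifit3, at 8.19, 8.63 and 3.22 CPM against 1.48 and 1.94 CPM combined. Rsad2, the antiviral enzyme viperin, overlapped, at 206 and 177 CPM combined and 235, 246 and 193 CPM with G-CSF. Mx1, an antiviral GTPase, also overlapped, at 1.68 and 2.97 CPM combined and 1.25, 1.45 and 1.7 CPM with G-CSF. Leaving out single libraries moved the list median between -1.17 and -0.54, the latter without combined replicate 1. On unscaled TPM 8 members were below and 2 above, and on values centred on genes of like length 13 were below and 0 above.

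Promoters of interferon target genes are known for a short motif, the interferon-stimulated response element, and 4 promoters are printed here to show it in genes described above. They are the 250 bases before the RefSeq gene start (GRCm38.p6), each 5′ to 3′: B2m at chr2:122147437-122147686 on the plus strand, Oas1a at chr5:120907526-120907775 on the minus strand, Isg15 at chr4:156200819-156201068 on the minus strand and Ifit3 at chr19:34583279-34583528 on the plus strand. Capitals mark matches, on either strand, to the core of that element, searched as GAAA, any 2 bases, then GAAA, or to the gamma-activated site, searched as TTC, any 3 bases, then GAA. The only gamma-activated match in these 4 is the first capital run of Oas1a. The core matched 2 times in Oas1a and 3 times in Isg15 with overlap, and 2 times on the opposite strand in Ifit3.
B2m: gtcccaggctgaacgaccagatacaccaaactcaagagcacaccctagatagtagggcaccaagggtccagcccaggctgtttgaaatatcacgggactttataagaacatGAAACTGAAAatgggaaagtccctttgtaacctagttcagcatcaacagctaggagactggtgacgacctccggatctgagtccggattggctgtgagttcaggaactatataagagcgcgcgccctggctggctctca
Oas1a: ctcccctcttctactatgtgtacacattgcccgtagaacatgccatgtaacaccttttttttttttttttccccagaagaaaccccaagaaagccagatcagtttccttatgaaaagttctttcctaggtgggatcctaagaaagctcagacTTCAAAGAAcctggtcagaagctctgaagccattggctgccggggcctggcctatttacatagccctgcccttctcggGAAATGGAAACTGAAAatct
Isg15: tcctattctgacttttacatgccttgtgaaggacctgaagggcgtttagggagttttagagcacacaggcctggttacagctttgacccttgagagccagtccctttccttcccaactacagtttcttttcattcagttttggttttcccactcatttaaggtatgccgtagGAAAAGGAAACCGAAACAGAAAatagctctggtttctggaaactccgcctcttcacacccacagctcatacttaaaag
Ifit3: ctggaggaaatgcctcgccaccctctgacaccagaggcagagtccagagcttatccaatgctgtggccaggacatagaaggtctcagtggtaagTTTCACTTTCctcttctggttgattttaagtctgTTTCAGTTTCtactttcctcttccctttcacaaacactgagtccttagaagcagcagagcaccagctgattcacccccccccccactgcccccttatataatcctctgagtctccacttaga
The core was present in 7 of the 17 interferon response genes with a promoter in the RefSeq table (41.2%) and in 2 of 13 class I genes (15.4%). Beside these stood 3.46% of the 27025 genes with a promoter of the same length. A gene counted when any of its promoters matched. Of the 10 interferon response genes with a promoter there that were below, 5 held it. Of the 10 such class I genes that were below, 1 held it, B2m. The gamma-activated motif was in 2 of 17 interferon response genes (11.8%) and in 8.13% of all genes counted so. A match describes the letters in the window and not a site in use.

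Class II presentation showed a smaller difference. H2-Aa and H2-Ab1 are the chains of the class II molecule, and Cd74 is the invariant chain that guides it. Of 10 tested members 6 were below and 1 above (median -0.44, DESeq2 2 lower). H2-Ab1 had 92.3 and 84.3 CPM combined and 171, 133 and 165 CPM with G-CSF (log2 change -0.82 ± 0.19, edgeR adjusted p = 0.252). H2-Aa had 142 and 125 CPM combined and 193, 195 and 237 CPM with G-CSF (log2 change -0.64 ± 0.17, edgeR adjusted p = 0.284). Both genes stood below in the 2 combined libraries, whereas Ciita, the master activator of class II genes, was the 1 member above, at 8.58 and 9.7 CPM combined and 7.03, 6.26 and 7.47 CPM with G-CSF. On unscaled TPM 2 members were below and 1 above.

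Cytotoxic lymphocyte genes lay low. In the list of T and NK cell genes 12 of 23 were below and 1 above, with a median log2 change of -0.62. Beside Gzma, the members below included Ncr1, the NK cell receptor NKp46, with 2.76 and 4.45 CPM combined and 10.9, 12.0 and 7.94 CPM with G-CSF (log2 change -1.52 ± 0.39, edgeR adjusted p = 0.274). Nkg7, a cytotoxic granule membrane protein named after its values were seen, had 50.8 and 33.4 CPM combined and 65.9, 70.2 and 70.3 CPM with G-CSF (log2 change -0.71 ± 0.20, edgeR adjusted p = 0.313). Untreated marrow had 35.1 and 27.5 CPM of Nkg7 and 1.36 and 2.13 CPM of Ncr1, so the combined libraries were nearer to it than the G-CSF libraries were. Of the T cell receptor complex genes given here, only Cd3d stood well above the floor. Cd3d had 24.3 and 23.7 CPM combined and 40.9, 39.0 and 30.4 CPM with G-CSF (log2 change -0.62 ± 0.20, edgeR adjusted p = 0.356), while Cd3e was at or under the floor of 3 counts in all 5 libraries and is given no fold. Trac, the T cell receptor alpha constant segment, was the 1 member above, at 0.493 and 0.799 CPM against 0.0963, 0 and 0.0946 CPM, values that rest on very few counts.

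Early B cell genes lay more on the other side. Of 16 tested early B cell genes 7 were above and 1 below (median 0.35), and DESeq2 called 3 higher. Bach2, a transcriptional repressor in the early B cell list, had 52.4 and 74.4 CPM combined and 22.7, 22.8 and 25.8 CPM with G-CSF, with 72.2 and 109.7 CPM untreated (log2 change 1.41 ± 0.22, edgeR adjusted p = 0.097). Rag1, which cuts DNA for receptor rearrangement, had 47.5 and 57.7 CPM combined and 31.0, 35.0 and 35.5 CPM with G-CSF (log2 change 0.64 ± 0.16, edgeR adjusted p = 0.274). Both genes were higher in each combined library than in any G-CSF library. Cd22, an inhibitory receptor of mature B cells named after its values were seen, had 49.7 and 48.6 CPM combined and 15.4, 12.7 and 19.0 CPM with G-CSF, against 59.5 and 104 CPM untreated (log2 change 1.65 ± 0.28, edgeR adjusted p = 0.145). The surrogate light chain genes did not follow. Vpreb1 overlapped at 27.2 and 26.5 CPM combined and 36.3, 36.1 and 24.9 CPM with G-CSF, and Vpreb2 was below at 1.87 and 2.4 CPM against 4.24, 2.84 and 2.84 CPM. Pax5, the B lineage factor, had 155 and 118 CPM combined and 60.7, 59.9 and 223 CPM with G-CSF, so 1 G-CSF library exceeded both combined ones. In the list of mature B and plasma cells 3 of 16 were above and 1 below, with a median of 0.27. That count above is near the 14.2% of all genes. Without combined replicate 1 the early B cell median was 0.05 and the mature B and plasma cell median -0.00087, so the latter changed sign. The mature B and plasma cell median was 0.48 without combined replicate 3 and 0.15 without G-CSF replicate 2.

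Neutrophil genes were read by stage of granule formation. Primary granules, made first in promyelocytes, carry Mpo, the serine proteases Elane, Prtn3 and Ctsg, and other enzymes. All 12 tested members had a negative log2 change, 10 of 12 were below and 0 above (median -0.49), and DESeq2 called 3 lower. Mpo had 1402 and 1205 CPM combined and 2081, 1627 and 1541 CPM with G-CSF, with 977 and 726 CPM untreated (log2 change -0.42 ± 0.19, edgeR adjusted p = 0.48). Elane had 503 and 455 CPM combined and 709, 646 and 586 CPM with G-CSF, with 431 and 334 CPM untreated (log2 change -0.43 ± 0.16, edgeR adjusted p = 0.422). Prtn3, named after its values were seen, had 471 and 398 CPM combined and 699, 659 and 700.2 CPM with G-CSF (log2 change -0.66 ± 0.18, edgeR adjusted p = 0.305). For Mpo and Elane the combined libraries lay between untreated and G-CSF marrow, whereas for Prtn3 they overlapped untreated marrow, at 405 and 271 CPM. On unscaled TPM 6 of the 12 were below and 1 above. Secondary and tertiary granule genes had 8 of 16 below and 0 above (median -0.31). Mature neutrophil genes had 7 of 18 below and 1 above (median -0.38), and 11 of the 18 were in the shortest bin of transcript length. Centred on genes of like length, 5 were below and 2 above with a median of -0.20, and the uncentred median was -0.24 and -0.23 when G-CSF replicates 1 and 2 were left out in turn. The paired alarmins S100a8 and S100a9 were the most abundant of them. S100a8 had 2518 and 2971 CPM combined and 6421, 6072 and 3428 CPM with G-CSF (log2 change -0.95 ± 0.26, edgeR adjusted p = 0.29). S100a9 had 5128 and 6184 CPM combined and 12119, 10135 and 6572 CPM with G-CSF (log2 change -0.76 ± 0.25, edgeR adjusted p = 0.366). In both cases G-CSF replicate 3 was the closest to combined marrow. Csf3r, the G-CSF receptor, overlapped, at 152 and 182 CPM and 165, 167 and 189.9 CPM. On unscaled TPM the mature neutrophil list gave 1 below and 3 above (16.7%), and its median on log2(TPM + 1) was 0.0014, which is -0.22 relative to all genes.

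Of 18 tested monocyte genes 9 were below and 1 above (median -0.21). On unscaled TPM 5 were below (27.8%) and 7 above (38.9%). The median was -0.33 without combined replicate 1 and -0.13 without G-CSF replicate 2. Ly6c2, which marks inflammatory monocytes and has a near-identical neighbour, had 17.2 and 22.9 CPM combined and 68.6, 65.5 and 34.9 CPM with G-CSF, far under the 522 and 457 CPM of untreated marrow (log2 change -1.49 ± 0.29, edgeR adjusted p = 0.206). Ccr2, the receptor that lets monocytes leave marrow, had 74.0 and 80.3 CPM combined and 83.6, 108 and 81.2 CPM with G-CSF (log2 change -0.24 ± 0.19, edgeR adjusted p = 0.684). Csf1r, the receptor of the monocyte and osteoclast growth factor M-CSF, differed little, at 73.1 and 73.6 CPM against 73.9, 73.5 and 76.9 CPM.

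Bone cells are where ZA is known to act. Of 12 tested osteoclast genes (of 16 listed) 4 were below and 1 above, with a median of -0.11, which became -0.07 and -0.04 when G-CSF replicates 2 and 3 were left out in turn. Ctsk, the collagen-degrading protease of osteoclasts, had 3.16 and 2.28 CPM combined and 16.1, 17.9 and 22.5 CPM with G-CSF (log2 change -2.78 ± 0.45, edgeR adjusted p = 0.127). Untreated marrow had 4.08 and 3.11 CPM and ZA marrow 3.45 and 10.2 CPM, so Ctsk was high in G-CSF marrow and the combined libraries were at or under the untreated level. Acp5, the tartrate-resistant phosphatase used as an osteoclast stain, overlapped at 62.3 and 63.0 CPM combined and 65.0, 55.4 and 86.1 CPM with G-CSF. It is much more abundant than Ctsk in marrow and is also made by other myeloid cells. Atp6v0d2, a proton pump subunit needed for osteoclast fusion, was low in all libraries, at 0.592 and 0.228 CPM against 1.35, 1.62 and 1.04 CPM. In sorted precursors Ctsk was barely detected, at mean levels of 0.132 CPM combined and 0.200 CPM with G-CSF. Its log2 change there was -0.99 ± 1.77, too uncertain to set beside the marrow value. Acp5 had a log2 change of 0.35 in precursors, and neither gene passed there.

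Among the 19 tested genes of osteoblasts, bone matrix and stromal niche, 5 were below and 2 above (median -0.21). The median was -0.08 without G-CSF replicate 3 and -0.13 without combined replicate 3. The following were named after their values were seen, except Bglap and Bglap2, which were the first measured of their list. Spp1, the bone matrix protein osteopontin, had 8.98 and 4.34 CPM combined and 24.2, 21.4 and 23.3 CPM with G-CSF (log2 change -1.78 ± 0.36, edgeR adjusted p = 0.214). Col1a1, the main collagen of bone, had 22.9 and 15.5 CPM combined and 36.9, 28.0 and 46.7 CPM with G-CSF (log2 change -0.95 ± 0.33, edgeR adjusted p = 0.381). Bglap, osteocalcin, had 3.16 and 2.74 CPM combined and 4.72, 4.23 and 6.24 CPM with G-CSF (log2 change -0.77 ± 0.50, edgeR adjusted p = 0.608), and its near-identical neighbour Bglap2 had 1.09 and 0 against 2.41, 1.22 and 1.8 CPM. These bone matrix genes were below, whereas the 2 members above mark the fat-related and stem cell niche stroma. Lepr, the leptin receptor, had 31.5 and 19.6 CPM combined and 11.0, 11.1 and 16.2 CPM with G-CSF, and Lpl, lipoprotein lipase, 94.9 and 81.8 and 53.1, 56.1 and 73.1 CPM. Neither passed edgeR's test, and the untreated libraries differed widely from each other for Lepr, at 15.4 and 3.76 CPM.

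The mevalonate pathway, which holds the enzyme that ZA blocks, had 7 of 22 genes below and 1 above, a median of -0.22, and no DESeq2 call. Fdps, farnesyl diphosphate synthase itself, had 30.9 and 39.5 CPM combined and 49.8, 46.8 and 46.1 CPM with G-CSF (log2 change -0.44 ± 0.18, edgeR adjusted p = 0.444). Hmgcs1, an early enzyme of the pathway, had 23.5 and 26.1 CPM combined and 27.3, 31.6 and 28.2 CPM with G-CSF (log2 change -0.23 ± 0.18, edgeR adjusted p = 0.686). Acat2 overlapped, at 19.9 and 18.5 CPM against 22.4, 22.5 and 18.6 CPM. On unscaled TPM 0 members were below and 6 above (27.3%). The list median was 0.11 on log2(TPM + 1), and relative to all genes it stayed between -0.21 and -0.12 in the 5 other scalings.

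Genes of the unfolded protein response, which expands the folding capacity of the endoplasmic reticulum, had 11 of 16 members below and 0 above (median -0.42). Hspa5, its main chaperone BiP, had 286 and 323 CPM combined and 491, 491 and 407 CPM with G-CSF, and 546 and 539 CPM untreated (log2 change -0.61 ± 0.14, edgeR adjusted p = 0.257). Hsp90b1, another chaperone of that compartment, overlapped at 498 and 672 and 439, 670.2 and 538 CPM. On unscaled TPM 6 were below and 1 above.

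Cell cycle genes had 6 of 26 above and 0 below with a median of 0.02, and haem synthesis genes 1 above and 1 below of 11. Replication-dependent histones, near-identical copies of which 37 of 41 lay in the shortest bin, had 3 above and 5 below (median -0.25). Centred on genes of like length they had 6 above and 4 below (median -0.01), and the uncentred median was 0.019 without combined replicate 3, -0.57 without combined replicate 1 and -0.16 without G-CSF replicate 1. Lysosome and proton pump genes had 9 of 20 below and 2 above (median -0.22), G-CSF receptor and STAT3 signalling genes 6 of 17 below and 1 above (median -0.05), and stem and multipotent progenitor genes 3 below and 3 above of 18 (median -0.04). The medians of the cell cycle, haem synthesis, G-CSF signalling and progenitor lists were near 0 and changed sign with 1 library left out.

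The share of TPM held by several gene classes did not overlap between the groups. Transcripts of the 13 mitochondrially encoded proteins took 3.66% and 3.07% of all TPM in the combined libraries and 1.68%, 2.20% and 2.19% in the G-CSF libraries. ZA marrow had 2.70% and 3.54%, and untreated marrow 0.949% and 2.04%, the first in the replicate with 39.1% small RNA. The mean share was 3.37% ± 0.422 (SD, n = 2) in combined and 2.03% ± 0.298 (SD, n = 3) in G-CSF marrow (exact permutation test, two-sided, p = 0.2). With 10 arrangements of 2 against 3 libraries, 0.2 is the smallest two-sided p that this test can give. In the gene-level values 8 of 13 were above and 0 below (median 0.56), and DESeq2 called 4 higher. The median was 0.30 without combined replicate 1. mt-Nd5, a complex I subunit named after its values were seen, had 633 and 508 CPM combined and 265, 322 and 279 CPM with G-CSF (log2 change 0.98 ± 0.18, edgeR adjusted p = 0.172). mt-Nd2 had 640.5 and 465 CPM combined and 370.4, 367 and 390.1 CPM with G-CSF (log2 change 0.56 ± 0.16, edgeR adjusted p = 0.307). mt-Nd1 overlapped, with 1741 and 1092 CPM and 886, 872 and 1144 CPM.

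The 4 adult globin genes took 23.5% and 22.0% of TPM in combined marrow and 29.7%, 28.7% and 27.7% with G-CSF (exact permutation test, two-sided, p = 0.2). Immunoglobulin genes took 1.08% and 1.02% in combined marrow and 0.541%, 0.617% and 0.754% with G-CSF (exact permutation test, two-sided, p = 0.2). Globins were thus the lower and immunoglobulins the higher class in both combined libraries. Of 7 tested haemoglobin genes 4 were below and 0 above (median -0.74), all 7 in the shortest length bin. Without G-CSF replicate 1 the median was -0.47, and centred on genes of like length it was -0.50. Hba-a1 had 12445 and 10636 CPM combined and 21790.1, 19679 and 17989 CPM with G-CSF (log2 change -0.78 ± 0.21, edgeR adjusted p = 0.288), and Hba-a2, its near-identical copy, 59866 and 48642 and 88368, 72169 and 73732 CPM. Other erythroid genes did not share this, as 5 of 20 membrane, iron and regulator genes were above and 2 below (median 0.08).

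**Figure D4:**
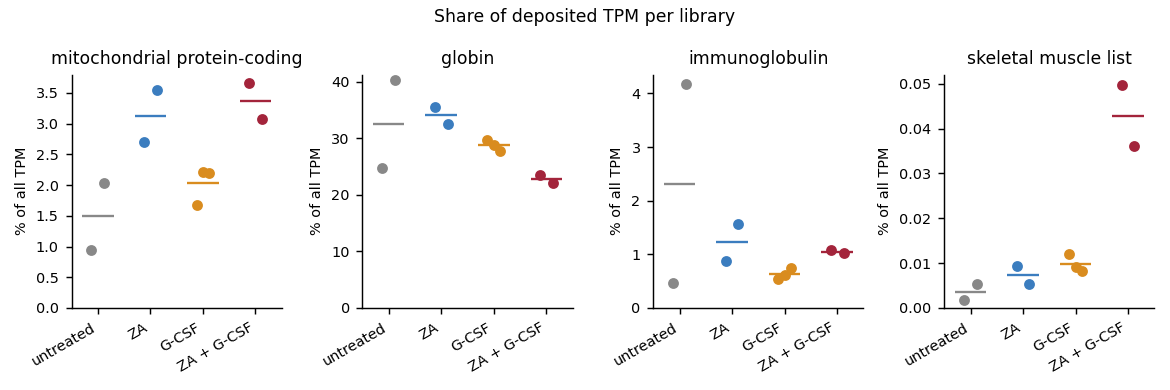
Percent of all deposited TPM held by 4 gene classes (linear axes from 0), with 1 point per whole-marrow library and a line at each group mean. Combined marrow held more mitochondrial (3.66% and 3.07%), immunoglobulin and skeletal muscle RNA and less globin RNA (23.5% and 22.0%) than each of the 3 G-CSF libraries; the untreated libraries differed widely.

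Skeletal muscle genes had the largest differences of any list. These genes, for contractile and calcium-handling proteins of muscle fibres, serve as markers of tissue outside marrow. Of 16 listed genes 14 passed the filter on low counts, all 14 had positive log2 changes, and 13 were above and 0 below (median 2.53). The filter needs enough counts in 2 libraries only, so a member can pass through the combined libraries alone. Myl1, at no more than 0.695 CPM in any other marrow library, did so. For such a member the higher level was fixed by the filter, and the counts include it. DESeq2 called 9 higher. Their summed TPM was 497 and 361 in the combined libraries and 119, 90.9 and 82.7 in the G-CSF libraries, which is 0.0497% and 0.0361% against 0.00827% to 0.0119% of all TPM. Untreated marrow had 0.00180% (the replicate rich in small RNA) and 0.00543%, so the muscle share was small everywhere and highest in the 2 combined libraries. Acta1, skeletal alpha-actin (chr8:123891769-123894751), had 121 and 42.0 CPM combined and 10.7, 7.36 and 8.13 CPM with G-CSF (log2 change 3.23 ± 0.39, edgeR adjusted p = 0.065). Ckm, muscle creatine kinase named after its values were seen, had 68.5 and 34.9 CPM combined and 13.8, 8.92 and 5.67 CPM with G-CSF (log2 change 2.45 ± 0.42, edgeR adjusted p = 0.145). The 2 combined libraries differed from each other, the first being the higher for both genes. Tnnt3, a fast troponin, had 42.5 and 22.3 CPM against 7.03, 4.52 and 4.44 CPM (log2 change 2.61 ± 0.35, edgeR adjusted p = 0.072). Myl1, a myosin light chain, had 20.9 and 12.3 CPM against 0.674, 0.695 and 0.473 CPM (log2 change 4.72 ± 0.63, edgeR adjusted p = 0.096). Atp2a1, the calcium pump of fast fibres, had 24.7 and 15.5 CPM against 2.7, 3.42 and 1.32 CPM (log2 change 2.99 ± 0.46, edgeR adjusted p = 0.097). Myh4, a fast myosin heavy chain, had 10.2 and 10.6 CPM against 1.73, 2.09 and 1.04 CPM (log2 change 2.66 ± 0.49, edgeR adjusted p = 0.182). Untreated marrow had Myh4 and Myl1 at 0 in both libraries, Acta1 at 0.226 and 0.327 CPM and Atp2a1 at 2.04 and 0.818 CPM, of which the first lay above G-CSF replicate 3. Muscle RNA moved with the contrast beside the lists described above, and its part in those results was not tested.

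Whether ZA had another effect with the cytokine than without was tested as the difference between 2 log2 changes that share no library, combined minus G-CSF and ZA minus untreated. Over 14737 genes the 2 sets of log2 changes correlated at -0.061 (Pearson) and -0.075 (Spearman), a description over genes that are not independent replicates. The test called 1 gene (0.00679%), again Gm20431. Its log2 change was -1.98 for ZA alone, with 60 and 102 counts untreated and 24 and 38 with ZA, and the difference was 10.78 ± 0.77 (edgeR adjusted p = 0.021), a fitted value that depends on the prior count since G-CSF marrow was at 0.

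The 5 protein-coding genes with the smallest p for this difference did not pass edgeR's test. Kbtbd11 was 0.77 for ZA alone and -4.76 for ZA on top of G-CSF, a difference of -5.53 ± 0.72 (edgeR adjusted p = 0.1). Bach2 was -1.05 and 1.41, Cecr2, a chromatin remodelling protein, -1.27 and 1.02, and Polr2b, a core subunit of RNA polymerase II, -1.64 and 1.20. These 3 had lower levels with ZA alone and higher levels with ZA added to G-CSF. Polr2b, for example, had 142 and 182 CPM untreated, 59.5 and 44.5 CPM with ZA, 80.8, 43.0 and 44.5 CPM with G-CSF and 130.2 and 127 CPM combined. Aacs, acetoacetyl-CoA synthetase, which feeds ketone bodies into lipid synthesis, was 2.13 for ZA alone and -0.25 on top of G-CSF, a difference of -2.38 ± 0.30 (edgeR adjusted p = 0.1). Its levels were 21.1 and 17.2 CPM untreated, 76.5 and 90.5 CPM with ZA, 66.8, 67.3 and 58.8 CPM with G-CSF and 64.0 and 44.1 CPM combined, so 3 of the 4 groups were high. Usp37, a deubiquitinase, showed the reverse, at 61.6 and 95.7 CPM untreated and 17.8 and 16.5 CPM with ZA but 21.1, 27.9 and 28.7 CPM with G-CSF and 23.1 and 26.9 CPM combined. H3f3aos, an antisense gene whose reads cannot be separated from its partner when strand is not stated, was at 0.197 and 0.571 CPM combined and 0.193, 0.0579 and 0.189 CPM with G-CSF, about the floor, and at 33.7 and 23.4 CPM untreated. Aacs, Usp37 and H3f3aos had been named earlier for ZA alone. Their large changes with ZA alone therefore reflect that choice and are no separate result. The difference given for Aacs contains that change, so it and its rank among the 5 genes are no separate result either.

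**Figure D5:**
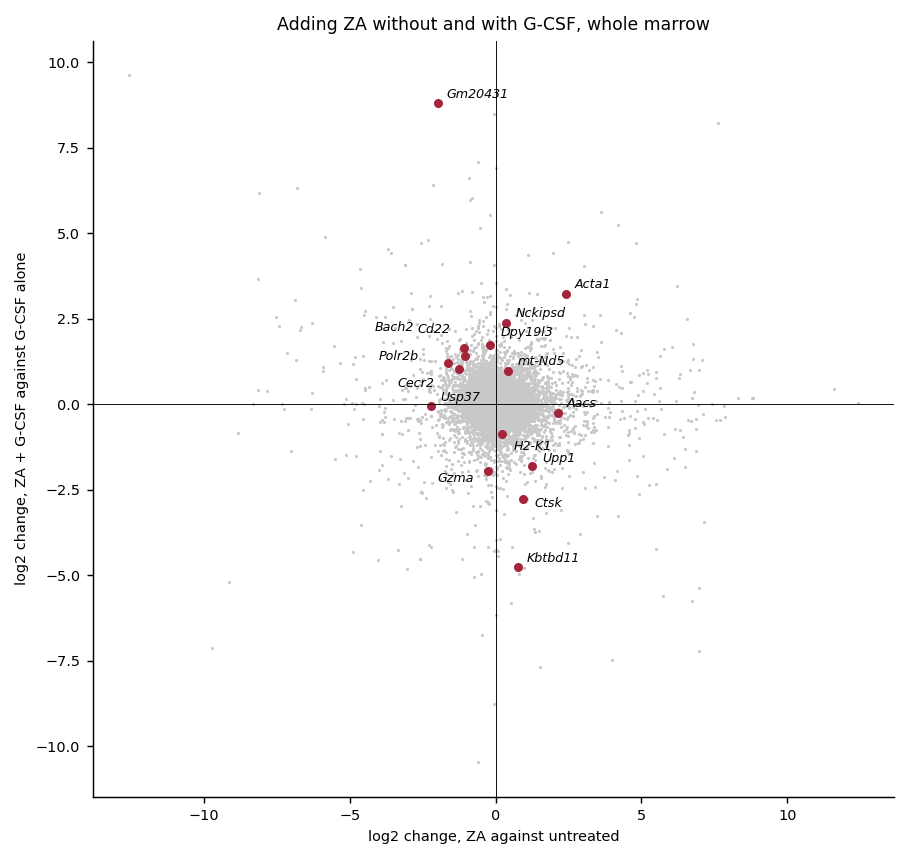
Each grey point is 1 of 14737 genes, with its log2 change for ZA against untreated marrow on the x axis and for ZA + G-CSF against G-CSF alone on the y axis; red points are named genes. The 2 contrasts share no library and correlated at -0.061. Aacs and Usp37, named earlier for ZA alone, lie along the x axis. Kbtbd11 and Nckipsd, picked for their change against G-CSF alone, lie along the y axis.

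Genes on in one group and off in the other were also counted, with on as at least 1 TPM in every library and off as at most 0.1 TPM. On in combined and off in G-CSF marrow were 36 genes, of which 3 were protein-coding (Gm20431, Slc6a20b and Hist1h4m) and 6 passed the filter on low counts. The opposite held for 16 genes, 0 of them protein-coding and 4 tested. By comparison, 50 genes were on in both groups given G-CSF and off in the other 4 libraries, and 11 the reverse. Those 61 genes were chosen for the same state in both groups, so their state is no result here. The 40 of them that were tested held 1 gene above and 9 below, and edgeR called 0.

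In sorted osteoclast precursors the same contrast, 5 combined and 5 G-CSF libraries fitted with sequencing run as a term, called 0 of 18954 genes with edgeR (0%). Unadjusted p was under 0.05 for 1162 genes, and DESeq2 called 113. That table was quantified separately, so no test was made between the 2. Values side by side were, for Kbtbd11, a log2 change of -4.76 in marrow and 1.11 in precursors, for Nckipsd 2.38 and -0.62, for Dpy19l3 1.73 and 0.77, for H2-K1 -0.86 and 0.04, and for Oas1a -1.78 and -0.41. The class I list had a median of -0.07 in precursors, the interferon list -0.35, the primary granule list 0.10 and the skeletal muscle list -0.21. The muscle genes named above had mean levels of at most 1.05 CPM in either precursor group, so that last median rests on very low values. Of these lists, the interferon one was the only one of the 4 with members at unadjusted p under 0.05 in precursors, 4 of 24. Over all genes it was 1162 of 18954. Several lists beyond these 4 also had such members, among them the replication-dependent histones with 15 of 41.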

How the data were processed

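RNA of whole marrow was measured in 9 libraries of 4 treatments, with NEB Ultra library kits and an Illumina HiSeq sequencer per the labels' protocols, which do not state strand. The submitters' processing notes name Salmon, DESeq2 1.16.1 and mm10. The authors deposited estimated counts and TPM per Ensembl gene. The deposited TPM sum to 1000000 in each library; the deposited estimated counts are not whole and carry no scaling between libraries. Symbols came from GENCODE vM21 (GRCm38), matched for 99.1% of 47729 identifiers, and promoters from RefSeq.

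Rounded counts went into edgeR 4.0.16 (quasi-likelihood, robust) in R 4.3.3: filterByExpr (minimum count 10, total 15), TMM, 4 groups in 1 model, Benjamini-Hochberg adjusted p under 0.05. Alternatives were DESeq2 1.42.0, limma 3.58.1 on log2(TPM + 1) and log2(TPM + 0.1), other scalings and filters, a replicate block, and each library left out. The 17 precursor libraries were fitted with run as a term. On simulated data for this comparison (14737 genes), edgeR recovered 34 of 100 genes changed by a log2 of 1 and 91 of 100 by a log2 of 2, with 16 false calls. The changed genes were drawn from those averaging at least 5 CPM, and no other gene differed between treatments. These rates therefore do not cover genes of lower level or the real differences between the 4 groups. Relative length was the ratio of count to TPM.

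Named genes were those passing the test, filled to 8 a side by unadjusted p (protein-coding, at least 5 CPM, groups apart), the first 2 measured of each described list, genes named earlier for ZA alone, and the 5 leading genes of the difference; others are said to be chosen after their values were seen. Examples from lists beyond these are also such later choices. The comparison, lists and rules were chosen with earlier results of these data known. Floors cover counting error only.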

Additional observations from a re-analysis of the deposited data

Results flagged for a closer look

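In the reported fit, Gm20431 was the 1 gene called for a difference in the effect of ZA between marrow with and without G-CSF. With library totals only no gene was called, and Gm20431 was not called in every fit with 1 library left out. The difference between the 2 log2 changes was 10.78 ± 0.77 (edgeR's quasi-likelihood test, Benjamini-Hochberg adjusted p = 0.021), with -1.98 for ZA against untreated marrow and 8.79 for combined against G-CSF marrow. These fitted values depend on the prior count, since the gene was listed at 0 in the 3 G-CSF libraries. All 3 G-CSF libraries had 0 counts and the other 6 had 24 to 102. The overlap with Ube2v1, Tmem189 and Gm22355 leaves the division of reads uncertain, and its part in the result was not tested.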

How the results depend on the processing

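Calls for combined against G-CSF marrow numbered 1 in the reported fit and also with DESeq2 size factors, protein-coding totals and a minimum count of 30. They were 0 with library totals only, 557 with no filter (295 higher, 262 lower), 5 with the combined and G-CSF libraries alone, 204 with DESeq2, 39 (35 higher, 4 lower) and 35 with limma on log2(TPM + 1) and log2(TPM + 0.1), and 0 to 18 when 1 library was left out: 3 without combined replicate 1, 2, 0 and 18 without G-CSF replicates 1, 2 and 3, 7 and 4 without ZA replicates 2 and 3, and 1 otherwise. That 1 gene was Acta1 without combined replicate 3 and Kbtbd2 without either untreated library, in place of Gm20431. For the difference between ZA effects, 1 call became 0 with library totals only, 746 with no filter, 257 with DESeq2 and 0 to 10 with 1 library left out (6 without combined replicate 1, 10 without untreated replicate 1, 3 without G-CSF replicate 1, 0 without either ZA library). In precursors, 0 became 113 with DESeq2, and no other setting gave a call. With the replicate block the marrow contrast gave 0 calls, in 4 groups and in the 2 groups alone, and the difference 3. Deviations of same-numbered libraries from their group means correlated at -0.04 and -0.03. The deviations of the 2 combined libraries are mirror images, so these values cannot show whether a replicate effect was shared. No label says that a number marks a shared animal or batch. The median over all genes moved from -0.01 to 0.16 with library totals, 0.22 with log2(TPM + 1) and 0.32 with log2(TPM + 0.1), so smaller negative changes turn positive there. Signs turned, on log2(TPM + 1) and log2(TPM + 0.1) in that order, for Acat2 (0.177, 0.203), Hmgcs1 (0.097, 0.116), Acp5 (0.224, 0.232), Ccr2 (0.112, 0.119), Rsad2 (0.115, 0.118), Vpreb1 (0.091, 0.094), Aacs (0.0716, 0.0721), Csf3r (0.276, 0.282), Csf1r (0.290, 0.316) and Usp37 (0.215, 0.290); with library totals for Acat2 (0.040), Acp5 (0.0341), Csf3r (0.116), Csf1r (0.150) and Usp37 (0.120); with the replicate block for Usp37 (0.0578, 0.0397), Csf3r (0.0210) and Csf1r (0.0277). With 1 library left out, Acp5 ranged from -0.270 to 0.0600, Hsp90b1 from -0.144 to 0.288, Pax5 from -0.0568 to 1.18, Usp37 from -0.174 to 0.0530, Csf3r from -0.197 to 0.0632, Stat2 from -0.206 to 0.285 and Tapbp from -0.185 to 0.413. None of these genes had passed the test. The libraries held 7.08 to 16.2 M counts. On simulated data of this size edgeR called 34 of 100 genes changed by a log2 of 1 and 91 of 100 by a log2 of 2, with 16 false calls. Those changed genes averaged at least 5 CPM and nothing else differed between treatments, so the rates do not cover genes of lower level.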
